A study of Mus musculus with 18 samples.

Results

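The genes examined here were those of the collagen and laminin chains, taken as every probe whose annotated symbol had the form Col, a number, a and a number, or Lama, Lamb or Lamc and a number. The rule found 100 probes of 50 genes among the 46116 probes and 17658 named genes of the array, 40 of them collagen and 10 laminin genes. Of the 50 genes, 21 had 1 probe and 29 had several, up to 5. 79 probes carried a RefSeq transcript accession and 21 a cDNA accession.

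Retinal RNA was hybridised to 18 one-colour bead arrays, 3 for each of 6 groups. The groups were retinas of DBA/2J mice, uninjured or taken 2 or 5 days past an optic nerve crush, and retinas of C57BL/6J mice under the same 3 conditions. All mice were male by their labels and 60 to 90 days old. In the injured mice both nerves were crushed behind the globe for 10 s with spring forceps under anaesthesia, and each array carried RNA pooled from 2 retinas. The arrays lay on 3 BeadChips whose arrays are not named, so chip and group cannot be told apart. Whole retina contains neurons, glia, vessels and any adhering tissue, and in such a sample fewer cells of a type and less RNA per cell cannot be told apart.

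Collagens are secreted proteins of wound chains that build fibrils, networks, beaded filaments and anchoring fibrils. Laminins are cross-shaped trimers of an alpha, a beta and a gamma chain. Together with type IV collagen networks they form basement membranes, which in the eye include the inner limiting membrane between retina and vitreous, the sheaths of retinal vessels, Bruch's membrane and the lens capsule. The fibrillar collagens are best known from sclera, cornea and vitreous, and in injured nervous tissue collagen is known from scars laid down by fibroblasts, vessel cells and glia.

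The level of a probe is given on the scale used in the study, 2 times the z-score of the log2 signal within an array, plus 8. The mean of every array is therefore 8 and its SD 2. On a typical array 1 unit was worth 0.56 log2, or 1.47-fold, with 0.51 and 0.66 log2 as the extremes. Median signals ran from 131.5 to 210.4, and bright probes, at the 95th percentile, gave 8.38 to 15.4 times the signal of dim ones at the 5th. Precision is limited by having 3 arrays a group. Photoreceptor markers averaged 15.96 to 17.45 units over the arrays, so retina was present in each. A C57BL/6J 2-day array (replicate 3) and a DBA/2J 2-day array (replicate 1) lay near the other strain's levels at strain-dependent genes. Their strain labels are in doubt on that account, an exchange of the 2 arrays was not tested, and the 2-day and strain comparisons below use them as labelled unless they are said to be left out. A C57BL/6J control array (replicate 3) had a mean of 14.62 units over 14 lens markers, against 6.99 to 10.63 units on the other arrays.

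Most collagen and laminin probes gave little signal in any group. Of the 50 genes, each represented by its brightest probe on average, 15 averaged over 8 units, 30 between 7 and 8 and 5 at 7 or below, and the median over these genes was 7.40, beside 7.64 over all named genes. Over all named genes, 44.1% averaged above 8. Probes differ in how brightly they report a transcript, so these levels do not rank the genes by abundance, and with no detection values used here a level near 7 cannot be told from background.

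The 8 genes with the brightest probes were Col4a2, Col9a1, Col6a1, Col23a1, Col18a1, Col4a1, Col2a1 and Col7a1, with means over the 18 arrays between 9.24 and 11.49 units. Col4a1 and Col4a2 encode the chains of the common basement membrane network. Col18a1 encodes a basement membrane collagen whose end fragment is endostatin, and its level lay between 9.30 and 10.59 on all arrays with no comparison called. Col2a1, the main fibrillar collagen of cartilage and vitreous, and Col9a1, which coats such fibrils, averaged 9.33 and 11.41 units. Among the laminins, Lamc1, the gamma chain of most laminin trimers, averaged 8.84 and Lamb2, a beta chain of the retinal matrix, 8.34, and the other 8 genes averaged 6.32 to 7.40. The spread between arrays was small for many genes: in 25 of the 50 the highest and lowest of the 18 arrays lay within 1 unit, while 11 ranged over more than 2 units.

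**Figure D1:**
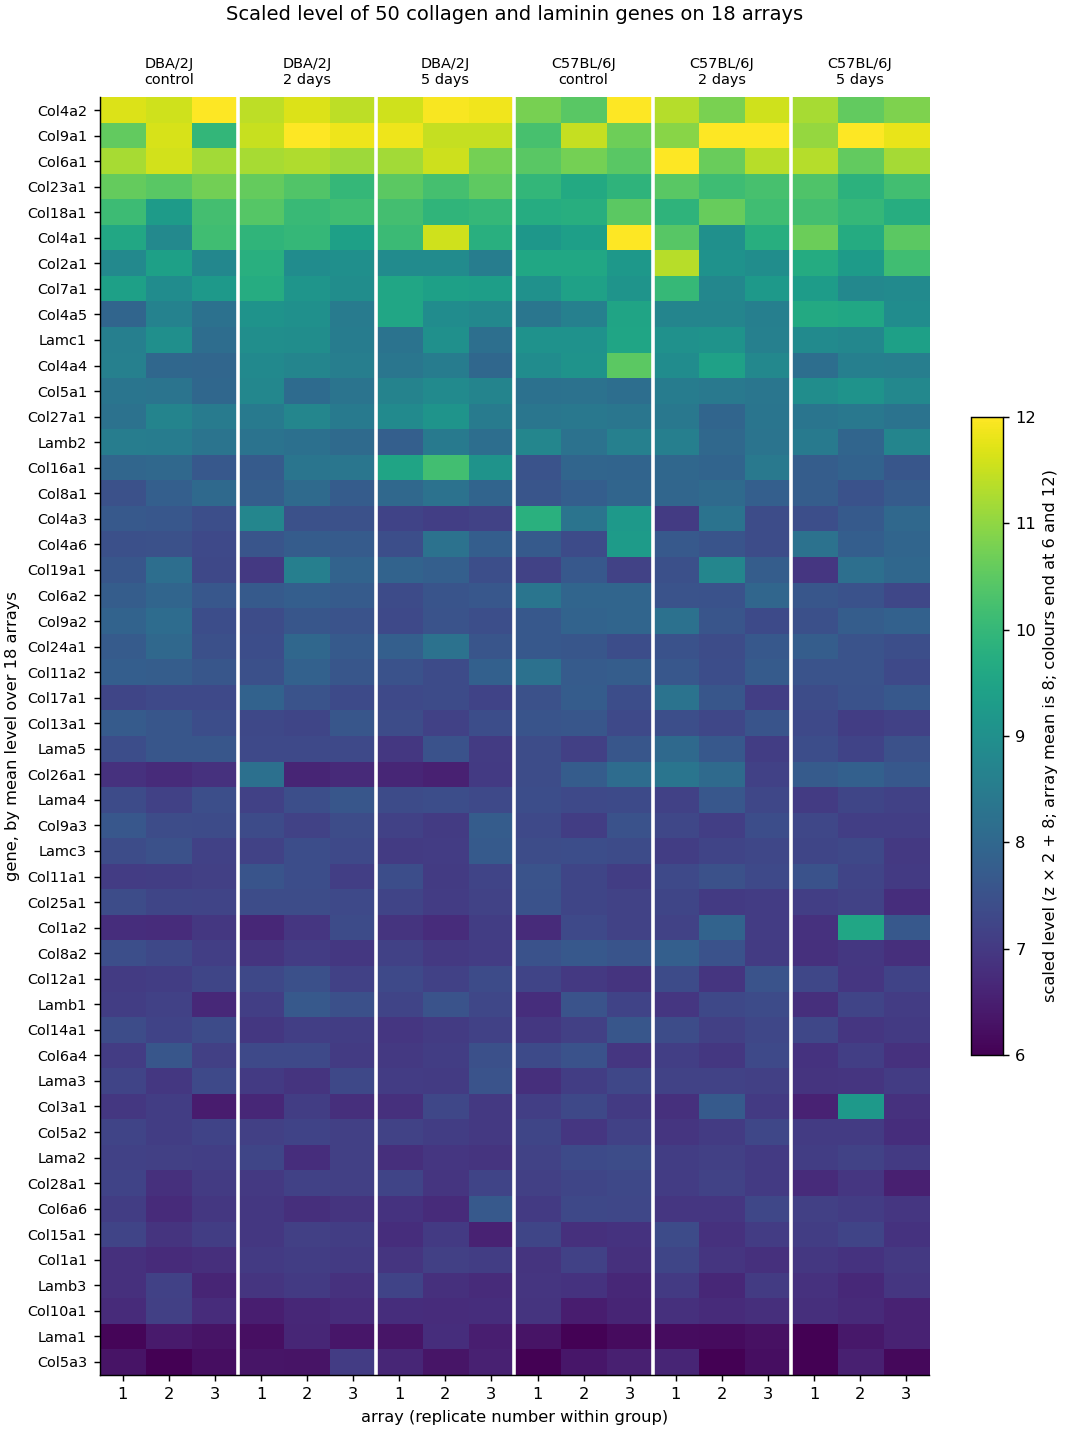
Scaled level (colour, units with an array mean of 8) of the brightest probe of each of the 50 genes (rows, by mean level) on the 18 arrays (columns, by group and replicate number). Most rows are dark and even near 7 units, and single bright cells stand out for Col4a1, Col4a2, Col4a4 and Col4a6 on C57BL/6J control replicate 3, for Col1a2 and Col3a1 on C57BL/6J 5 days replicate 2, and for Col16a1 on the 3 DBA/2J 5-day arrays.

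The largest change in the family was in Col16a1, a collagen that associates with fibrils and other matrix, in DBA/2J retinas 5 days after crush. Its level was 9.49, 10.19 and 9.09 units on the DBA/2J 5-day arrays, against 7.98, 8.02 and 7.65 units on the DBA/2J control arrays. At 2 days the DBA/2J arrays read 7.73, 8.33 and 8.35 units. All 3 DBA/2J 5-day arrays lay above every other array of either strain. The raw signals were 497.6, 530.5 and 287.5 on the DBA/2J 5-day arrays and 177, 178.4 and 205.5 on the DBA/2J control arrays.

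In the DBA/2J comparison of 5 days with control, Col16a1 rose by 1.71 units (SE 0.25, limma adjusted p = 0.0158), and it was the only one of the 100 probes called. Over all probes 0.0672% were called there, at an adjusted p under 0.03. The C57BL/6J arrays read 7.76, 7.88 and 7.61 units at 5 days, against 7.53, 7.95 and 7.92 units in controls, with a difference of -0.05 units (95% interval -0.58 to 0.47). The test of the difference between the strains in the 5-day change gave 1.76 units (SE 0.35, unadjusted p = 0.000137), with an adjusted p of 0.98 over all probes, so it was not called. The call in DBA/2J remained in 1 of 6 fits that each left out an array, the one without DBA/2J 5 days replicate 3 (adjusted p = 0.0088), and in the other 5 the adjusted p went up to 0.0789 while the difference stayed between 1.41 and 1.78 units. It was also lost when only the DBA/2J 5-day and control arrays were fitted (adjusted p = 0.0756) and with SAM. Beside this change, the 11 measured macrophage and microglia markers averaged 7.29 to 8.14 units on the DBA/2J 5-day arrays and 6.99 to 7.12 on the DBA/2J control arrays. DBA/2J 5 days replicate 2 read highest among its group for both, with a marker mean of 8.14 units. Replicates 1 and 3 had marker means of 7.29 and 7.32 units, just above the DBA/2J control arrays. Their Col16a1 levels nevertheless lay above every array outside their group. In C57BL/6J, where Col16a1 differed by -0.05 units, the same markers averaged 7.93 to 8.46 units at 5 days and 7.19 to 7.39 in controls. The part of those cells was not tested.

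The promoter of Col16a1 is shown because this gene moved most, followed by those of Col5a1 and Col8a2, whose probes were called in C57BL/6J. The bases lie just before the annotated gene start in RefSeq (GRCm38.p6, plus strand in all 3 genes), at chr4:130047590-130047816 for Col16a1, chr2:27886175-27886380 for Col5a1 and chr4:126286544-126286793 for Col8a2. Capitals mark 4 motifs searched on both strands, which were the GC box GGGCGG, the box named for its letters CCAAT, the TATA box with the letters TATAAA, and the AP-1 site with the letters TGANTCA. Matches of the GC box may overlap.
Col16a1: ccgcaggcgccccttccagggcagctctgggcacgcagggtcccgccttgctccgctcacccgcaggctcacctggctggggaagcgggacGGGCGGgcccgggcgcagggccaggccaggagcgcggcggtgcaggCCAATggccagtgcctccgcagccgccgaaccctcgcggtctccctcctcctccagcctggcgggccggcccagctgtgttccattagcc
Col5a1: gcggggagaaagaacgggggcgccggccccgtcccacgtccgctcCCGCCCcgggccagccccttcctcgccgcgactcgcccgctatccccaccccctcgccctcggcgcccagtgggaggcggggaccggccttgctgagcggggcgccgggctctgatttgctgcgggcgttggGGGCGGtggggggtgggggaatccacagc
Col8a2: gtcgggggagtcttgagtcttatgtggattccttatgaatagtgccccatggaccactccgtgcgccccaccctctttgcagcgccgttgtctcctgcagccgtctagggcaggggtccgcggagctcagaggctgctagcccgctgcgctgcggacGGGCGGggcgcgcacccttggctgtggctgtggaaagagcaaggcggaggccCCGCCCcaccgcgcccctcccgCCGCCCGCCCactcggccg
The GC box was found 1 time before Col16a1, 2 times before Col5a1 and 4 times before Col8a2, and the CCAAT box only before Col16a1 among these 3. Neither the TATA box nor the AP-1 site was found in the bases shown. In the 250 bases before the start of 32851 RefSeq genes, the GC box was present in 32.7%, the CCAAT box in 33.8%, the TATA box in 12.4% and the AP-1 site in 6.75%. Of the 37 collagen and laminin genes in the same promoter table, 22 had a GC box, 14 a CCAAT box, 5 a TATA box and 1 an AP-1 site. A match of letters describes the sequence and is no evidence of binding.

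Col5a1, the chain of type V collagen that sits inside type I fibrils and sets their width, was higher 5 days after crush in both strains. It measured 8.69, 8.88 and 8.71 units on the DBA/2J 5-day arrays, against 8.32, 8.32 and 7.99 units on the DBA/2J control arrays. In C57BL/6J it measured 8.94, 9.07 and 8.79 units at 5 days, against 8.25, 8.26 and 8.16 units in controls. The groups did not overlap in either strain. At 2 days the DBA/2J arrays read 8.77, 8.09 and 8.30 units and overlapped with their controls, while the C57BL/6J arrays read 8.52, 8.43 and 8.36 units and lay just above theirs.

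At 5 days Col5a1 rose by 0.71 units in C57BL/6J (SE 0.15, limma adjusted p = 0.0234). In DBA/2J the difference was 0.55 units with an adjusted p of 0.141, and the mean over both strains rose by 0.63 units (SE 0.11, adjusted p = 0.00317). The difference between the strains in that change was -0.16 units (95% interval -0.62 to 0.29). In the mean over both strains the call was kept in each of 12 fits without 1 array. It was lost with quantile normalization (0.23 log2, adjusted p = 0.0524), and in C57BL/6J alone it was lost in each of the 6 fits without 1 array (adjusted p 0.0316 to 0.0759).

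**Figure D2:**
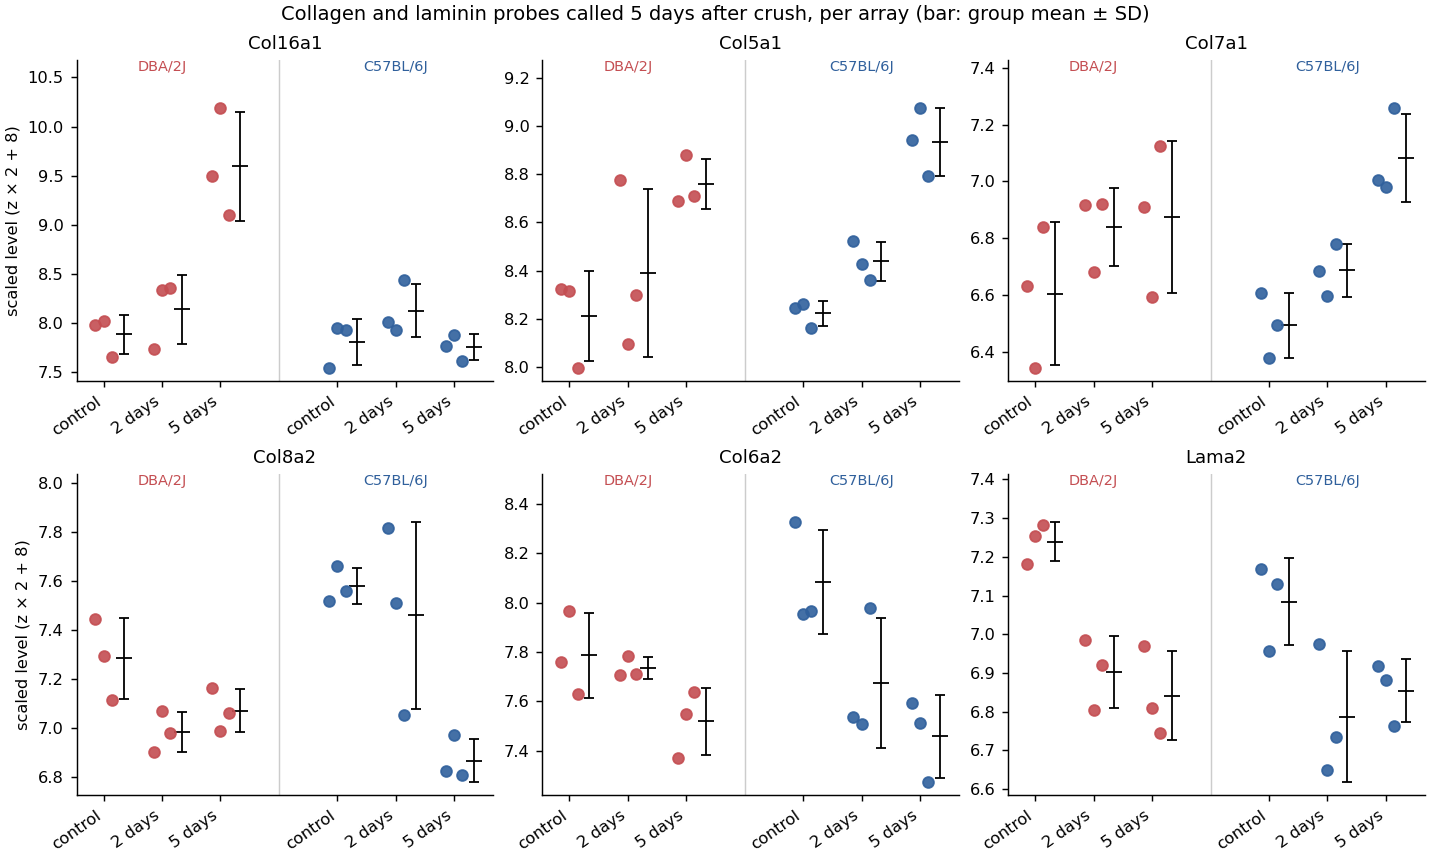
Scaled level (units) of the 6 collagen and laminin probes called at 5 days, with 1 point per array, DBA/2J on the left and C57BL/6J on the right of each panel, and black bars for the group mean ± SD (n = 3). Col16a1 stands out on the DBA/2J 5-day arrays at 9.09 to 10.19 units, and Col5a1 is above control at 5 days in both strains.

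Across the family, the comparison of 5 days with control in the mean over both strains had 6 of 100 probes called, against 4.81% of all probes, a share near the background. Those higher were Col5a1, Col16a1 and the dimmer probe of Col7a1. Those lower were Col8a2, Col6a2 and a probe of Lama2. With the unadjusted p under 0.05, 23 of 100 probes passed, beside 23.7% of all probes. The median difference over the 100 probes was -0.05 units and over all probes -0.06 units, and 36 of the 100 lay above 0, beside 37.7% of all probes.

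In C57BL/6J retinas alone, 2 of 100 probes, Col5a1 and Col8a2, were called at 5 days, against 1.36% of all probes. 20 of the 100 had an unadjusted p under 0.05, beside 19.6% of all probes. SAM called 3, which were Col5a1, Col8a2 and the dimmer Col7a1 probe, beside 3.60% of all probes. In DBA/2J at 5 days 9 of the 100 had an unadjusted p under 0.05, beside 11.3% of all probes, and SAM called 0 of the 100 and 0.421% of all probes. The median difference of the 100 probes was -0.05 units in DBA/2J and -0.10 units in C57BL/6J, beside -0.04 and -0.06 units over all probes. By the brightest probe of each gene, 10 genes were higher and 18 lower at 5 days in both strains, with no common control arrays between the strains, and the other 22 differed in sign.

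**Figure D3:**
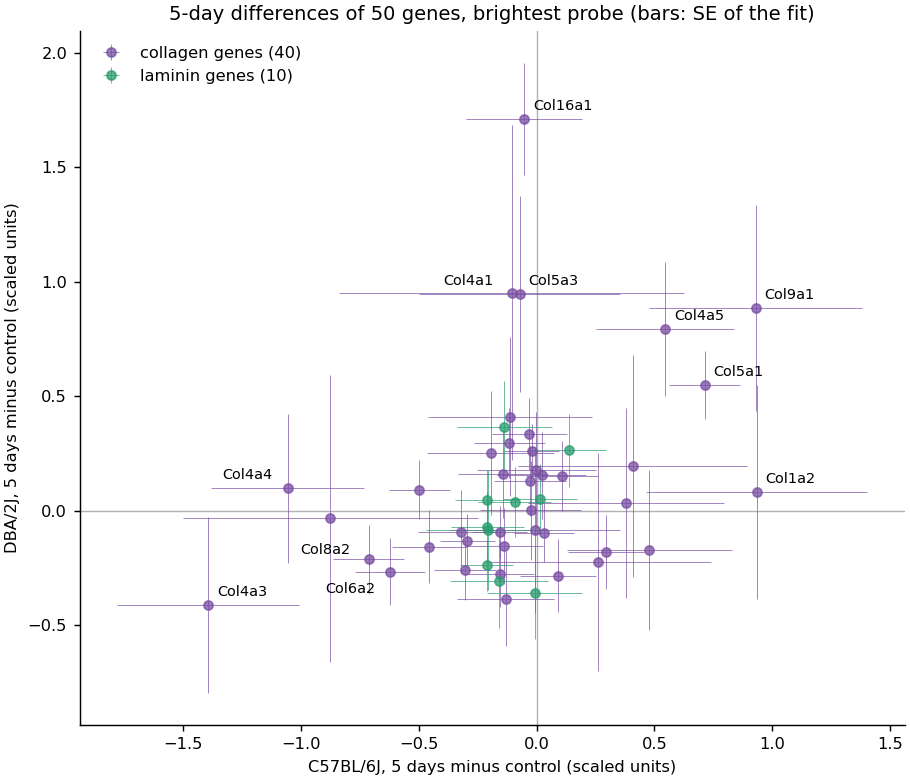
Difference between 5 days and control in DBA/2J (vertical axis) and C57BL/6J (horizontal axis) for the brightest probe of the 50 genes, in scaled units, with bars for the SE of the limma fit and laminin genes in green. Col16a1 lies 1.71 units up in DBA/2J and near 0 in C57BL/6J, Col5a1 is positive on both axes, and most genes cluster within 0.5 units of 0 on both.

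Col8a2, a short-chain collagen of the network under the corneal endothelium, read 7.16, 6.99 and 7.06 units on the DBA/2J 5-day arrays, against 7.44, 7.29 and 7.11 units on the DBA/2J control arrays. The C57BL/6J arrays read 6.82, 6.97 and 6.81 units at 5 days, against 7.52, 7.66 and 7.56 units in controls. The groups were well apart in C57BL/6J and overlapped in DBA/2J. Col8a2 fell by 0.71 units in C57BL/6J (SE 0.15, limma adjusted p = 0.0248) and by 0.46 units in the mean over both strains (adjusted p = 0.0183). The C57BL/6J call was lost in each of the 6 fits without 1 array (adjusted p 0.0488 to 0.0840) and with quantile normalization (adjusted p = 0.0865), and the call in the mean was kept in 2 of 12 such fits (adjusted p 0.0143 to 0.0540). Its raw signal was 136.1 to 156.1 on the C57BL/6J 5-day arrays and 176.4 to 231.3 on the C57BL/6J control arrays, close to the median signal of the arrays.

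The other 3 calls in the mean over both strains were also of dim probes with small differences. Col6a2, a chain of the beaded filaments of type VI collagen, fell by 0.44 units (SE 0.10, adjusted p = 0.0203). It read 7.37, 7.55 and 7.64 units at 5 days in DBA/2J, against 7.76, 7.97 and 7.63 units in DBA/2J controls, which overlapped. In C57BL/6J it read 7.60, 7.51 and 7.27 units at 5 days, against 8.33, 7.96 and 7.97 units in controls. Its C57BL/6J groups lay apart. The Col6a2 call was kept in 5 of 12 fits without 1 array (adjusted p 0.0166 to 0.0536). These values are of the brighter Col6a2 probe. The dimmer one was not called, with means in controls and at 5 days of 7.00 and 6.87 units in DBA/2J, and 7.01 and 7.00 units in C57BL/6J.

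A probe of Lama2, the alpha chain of muscle and nerve laminin, fell by 0.31 units (SE 0.07, adjusted p = 0.0212). It read 6.97, 6.81 and 6.74 units at 5 days in DBA/2J, against 7.18, 7.25 and 7.28 units in DBA/2J controls. The C57BL/6J arrays read 6.92, 6.88 and 6.76 units at 5 days, against 7.17, 6.96 and 7.13 units in controls. The groups did not overlap in either strain. The call was kept in 2 of 12 fits without 1 array (adjusted p 0.0227 to 0.0533), and lost with quantile normalization (adjusted p = 0.0605), with normexp (adjusted p = 0.0687) and without the 2 arrays near the other strain (adjusted p = 0.0332). The called probe was the dimmest of 3 for this gene. The brightest Lama2 probe differed by -0.22 units with an adjusted p of 0.102. The remaining Lama2 probe was not called, with means in controls and at 5 days of 7.13 and 7.06 units in DBA/2J, and 7.10 and 6.94 units in C57BL/6J.

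The dimmer of the named Col7a1 probes, for the collagen of anchoring fibrils in skin, rose by 0.43 units (SE 0.11, adjusted p = 0.0256). It read 6.91, 6.59 and 7.13 units at 5 days in DBA/2J, against 6.63, 6.34 and 6.84 units in DBA/2J controls. In C57BL/6J it read 7.01, 6.98 and 7.26 units at 5 days, against 6.61, 6.38 and 6.49 units in controls. The C57BL/6J groups lay apart and the DBA/2J groups overlapped. The Col7a1 call was kept in 2 of 12 fits without 1 array (adjusted p 0.0132 to 0.0596), and lost with the compared arrays alone (adjusted p = 0.0489) and without the 2 arrays near the other strain (adjusted p = 0.0385). The brighter Col7a1 probe was not called, at 9.54, 9.41 and 9.36 units at 5 days against 9.41, 8.93 and 9.22 units in controls for DBA/2J, and 9.32, 8.79 and 8.88 units against 9.03, 9.44 and 9.09 units for C57BL/6J.

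Of the 6 type IV chains 4 read highest on the same array. On C57BL/6J control replicate 3, the array with the high lens markers, Col4a1 read 12.58 units and Col4a2 14.01 units. The other C57BL/6J control arrays read 9.16 and 9.39 units for Col4a1 and 10.77 and 10.47 units for Col4a2. The other 17 arrays reached at most 11.58 units for Col4a1, on DBA/2J 5 days replicate 2, and 12.22 units for Col4a2, on DBA/2J control replicate 3. Col4a4 at 10.49 units and Col4a6 at 9.28 units were likewise highest on that C57BL/6J control array, as was the smooth muscle actin Acta2 at 11.10 units. Other vessel markers differed in direction there. The 11 measured markers of mural cells of the vessel wall averaged 7.97 units, against 7.67 to 7.87 units on the other arrays. Rgs5, a mural cell marker, was at its lowest, at 8.19 units against 8.31 to 10.39 units. The 11 measured endothelium markers averaged 8.45 units there, hardly below the next lowest array at 8.46 units, and up to 8.88 units elsewhere. Of other basement membrane genes, Nid1 at 10.35 units and Hspg2 at 9.57 units were highest on that array. The other 17 arrays reached at most 7.995 units for Nid1 and 7.955 units for Hspg2. Agrn, at 13.78 units, was not highest there. The 22 basement membrane partners listed below averaged 9.02 units on that array, against 8.40 to 8.76 units on the others. The part of lens or vessel tissue in these values was not tested.

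The SD over the 3 C57BL/6J control arrays was 1.91 units for Col4a1 and 1.96 units for Col4a2, against 0.68 and 0.35 units over the DBA/2J control arrays, and neither gene was called in any comparison. In the mean over both strains Col4a1 differed by 0.97 units at 5 days once C57BL/6J control replicate 3 was left out (adjusted p = 0.126). Col4a5, a chain of the network of specialised basement membranes, read 9.54, 8.91 and 8.79 units at 5 days in DBA/2J, against 7.96, 8.66 and 8.24 units in DBA/2J controls. The C57BL/6J arrays read 9.64, 9.57 and 8.91 units at 5 days, against 8.36, 8.62 and 9.51 units in controls, with the highest control value again on replicate 3. With all arrays the mean over both strains differed by 0.67 units (adjusted p = 0.0649), and without C57BL/6J control replicate 3 it rose by 0.84 units (adjusted p = 0.0189). That array thus decided whether this probe, the brightest of Col4a5, was called. A dimmer Col4a5 probe, averaging 8.49 units, was not called. Its means in controls and at 5 days were 8.15 and 8.48 units in DBA/2J, and 8.83 and 8.82 units in C57BL/6J.

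**Figure D4:**
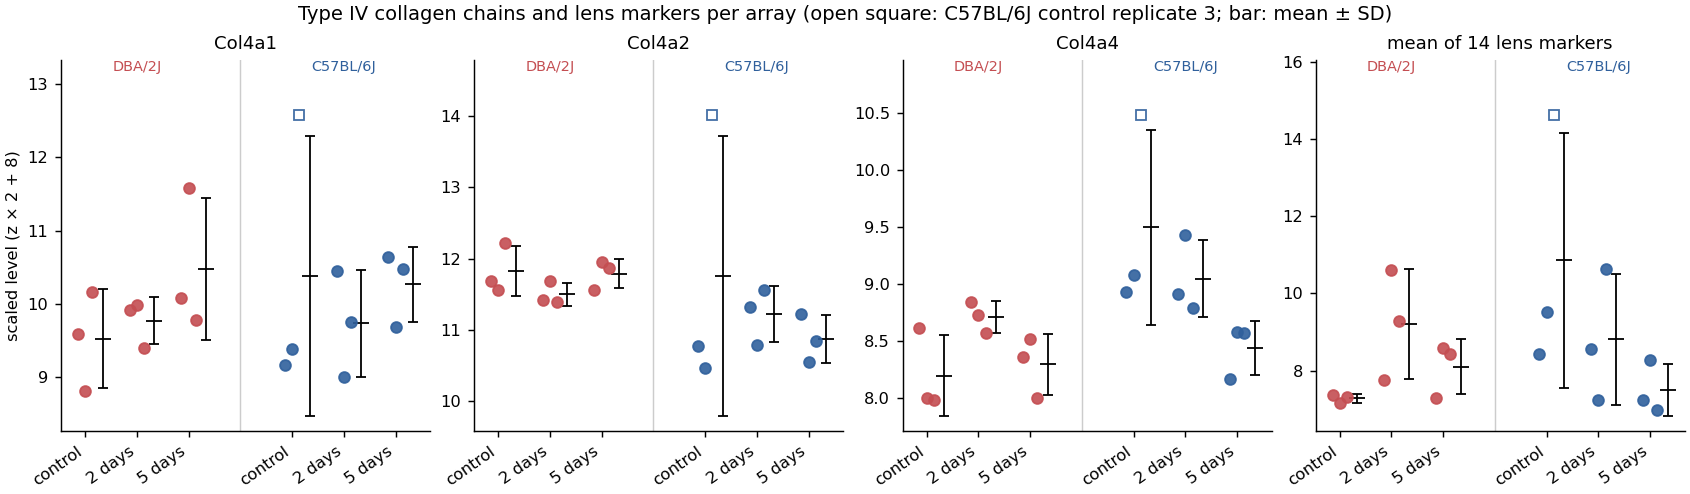
Scaled level (units) of Col4a1, Col4a2 and Col4a4 and the mean of 14 lens markers on each array, DBA/2J on the left and C57BL/6J on the right, with black bars for the group mean ± SD (n = 3). The open square, C57BL/6J control replicate 3, is the highest array in all 4 panels, at 12.58, 14.01, 10.49 and 14.62 units.

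Col4a3 and Col4a4, which lie head to head in the genome and encode partner chains, read highest in C57BL/6J controls. Col4a3 read 7.68, 7.63 and 7.44 units in DBA/2J controls, against 9.80, 8.31 and 9.24 units in C57BL/6J controls. Across the C57BL/6J time course the injured arrays read 7.04, 8.29 and 7.39 units at 2 days and 7.44, 7.71 and 8.02 units at 5 days. All 3 C57BL/6J control arrays lay above the other groups, except that DBA/2J 2 days replicate 1 read 8.74 units. The difference of DBA/2J from C57BL/6J controls was -1.54 units (SE 0.39, adjusted p = 0.197), and that of C57BL/6J at 5 days from control was -1.39 units (adjusted p = 0.0693). Neither was called by limma, while SAM called the first. The 14 lens markers also differed between these groups, at means of 7.15 to 7.38 units on the DBA/2J control arrays, against 8.42, 9.53 and 14.62 units on the C57BL/6J control arrays. In C57BL/6J at 5 days their means were 6.99 to 8.27 units. Of the 14, 11 had an unadjusted p under 0.05 between the control groups, beside 6.93% of all probes. Between C57BL/6J at 5 days and its control 13 had, beside 19.6% of all probes. None of the 14 was called in either comparison, and they share their arrays, so the counts are not separate evidence. The lens mean was highest, at 14.62 units, on C57BL/6J control replicate 3, where Col4a3 read 9.24 units. It was 10.6 units on both C57BL/6J 2 days replicate 3 and DBA/2J 2 days replicate 2, where Col4a3 read 7.39 and 7.49 units. The strain label of the first of these 2 arrays is in doubt. Col4a3 was highest, at 9.80 units, on C57BL/6J control replicate 1, where the lens mean was 8.42 units. The part of lens tissue in Col4a3 was not tested. Without C57BL/6J control replicate 3 the Col4a3 differences were -1.47 units between the controls and -1.33 units at 5 days in C57BL/6J.

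Col4a4 read 8.61, 8.0 and 7.98 units in DBA/2J controls, against 8.93, 9.08 and 10.49 units in C57BL/6J controls. The groups lay apart, by -1.30 units (adjusted p = 0.194), or by -0.81 units without C57BL/6J control replicate 3 (adjusted p = 0.447). At 5 days in C57BL/6J it read 8.17, 8.58 and 8.57 units, a difference of -1.06 units from control (adjusted p = 0.0966), which was -0.56 units without C57BL/6J control replicate 3 (adjusted p = 0.224).

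Levels of chains that assemble together were set against each other over the 18 arrays. Col4a1 and Col4a2 gave r = 0.71 (permutation p = 0.00404, adjusted over 5 pairs 0.0202) and rho = 0.44 (permutation p = 0.0668, adjusted 0.167). Without the 2 arrays farthest from the median of Col4a1, C57BL/6J control replicate 3 and DBA/2J 5 days replicate 2, r was 0.23 (permutation p = 0.384), so the relation rested on those arrays. On deviations from the group means, with all arrays kept, r was 0.88. Col4a3 and Col4a4 gave r = 0.63 (permutation p = 0.00852, adjusted 0.0213) and rho = 0.59 (permutation p = 0.0117, adjusted 0.0587). Without C57BL/6J control replicates 1 and 3, r was 0.51 (permutation p = 0.0442, adjusted 0.221), and on deviations from the group means r was 0.29. Their relation therefore lay partly between the groups.

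The other pairs showed little relation. Col1a1 stayed between 6.74 and 7.26 units and Lamb1 between 6.69 and 7.67 units, near background, so these pairs could show little. The pair of Col1a1 and Col1a2, which share the type I trimer, gave r = -0.08 (permutation p = 0.783) and rho = 0.15 (permutation p = 0.553). Col1a1 and Col3a1 gave r = -0.10 (permutation p = 0.714) and rho = 0.04 (permutation p = 0.861), and Lamb1 and Lamc1 gave r = 0.08 (permutation p = 0.743) and rho = 0.001 (permutation p = 1). Over the 18 arrays the adjusted p of r was 0.783 for each of these 3 pairs. Without the 2 farthest arrays r was -0.17, -0.06 and -0.20, with adjusted p of 0.701, 0.839 and 0.701.

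The genes most like Col4a1 over the 18 arrays were Lacc1 (r = 0.91), Gstm1 (r = 0.88), Nupr1 (r = 0.85), Itga6 (r = 0.84) and Pmp22 (r = 0.83), chosen as the highest of all named genes. For Col1a1 they were Syt7 (r = 0.78), Cd209f, Fut4, Acsf2 and Tpm4 (r = 0.71 to 0.73). The Col1a1 probe read 6.74 to 7.26 units on all arrays, a level that cannot be told from background, so its matches may follow noise. All points share their arrays, and these values are a description.

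The fibrillar collagens of scar tissue stayed near the floor in most retinas. Col1a1 read 6.74 to 7.26 units on all 18 arrays. Col1a2 and Col3a1, its partners in scar fibrils, were high on a single array, C57BL/6J 5 days replicate 2, at 9.56 and 9.24 units. The next highest array was C57BL/6J 2 days replicate 2, at 7.90 and 7.70 units. Decorin (Dcn), a fibroblast proteoglycan, read 9.98 units on the first and 9.91 units on the second of these arrays, and 6.86 to 7.93 units on the others. Other markers of that kind did not follow Dcn. On the same 2 arrays, in that order, Lum read 7.10 and 6.74 units, Fmod 6.81 and 6.43 units and Postn 7.36 and 7.19 units. The 16 fibroblast, sclera and meninges markers averaged 8.65 units on C57BL/6J 5 days replicate 2, their highest array, and 8.27 to 8.62 units on the other 17. On C57BL/6J 2 days replicate 2 they averaged 8.54 units. The other C57BL/6J 5-day arrays read 6.86 and 7.66 units for Col1a2. The part of such tissue in these values was not tested.

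Col2a1 and Col6a1 were highest on C57BL/6J 2 days replicate 1, at 11.36 and 12.50 units. The next highest arrays read 10.16 units for Col2a1 and 11.58 units for Col6a1. Col9a1, the partner of type II collagen, read 11.49, 12.27 and 11.85 units at 2 days in DBA/2J, against 10.55, 11.63 and 9.96 units in DBA/2J controls. In C57BL/6J it read 10.92, 12.20 and 12.19 units at 2 days, against 10.25, 11.46 and 10.67 units in controls. The groups overlapped in both strains, and the mean over both strains differed by 1.07 units (adjusted p = 0.234).

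At 2 days no collagen or laminin probe was called in either strain or in their mean. In DBA/2J 0 of 100 were called by limma, against 0% of all probes, 6 had an unadjusted p under 0.05, beside 6.39% of all probes, and SAM called 0, beside 0.0108% of all probes. In C57BL/6J 0 were called by limma, against 0.0195% of all probes, 10 had an unadjusted p under 0.05, beside 7.47% of all probes, and SAM called 0, beside 0.293% of all probes. In the mean over both strains 0 were called by limma, against 0.180% of all probes, and 8 had an unadjusted p under 0.05, beside 9.60% of all probes. SAM was not run on the mean. Without the 2 arrays near the other strain 0 of 100 were called by limma in each of these 3 comparisons. With the replicate number as a block, 14 of all probes were called in C57BL/6J in place of 9, again with 0 of the 100.

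The largest 2-day differences among groups that did not overlap were small in DBA/2J, where Col17a1, a transmembrane collagen of epithelial anchoring, differed by 0.29 units, Col4a6 by 0.26 units, Col8a2 by -0.30 units and Lamb2 by -0.27 units. In C57BL/6J they were Col23a1 at 0.45 units, Col5a1 at 0.22 units, Col4a3 at -1.55 units and Col11a2, a minor fibrillar chain, at -0.33 units. None of these passed the test, with adjusted p of 0.244 and more. At 5 days the corresponding values that were not called were 0.95 units for Col5a3, a further type V chain, -0.41 units for Col4a3 and -0.28 units for Col14a1, a fibril-associated collagen, in DBA/2J. Col5a3 rested on DBA/2J control replicate 2, at 4.14 units beside 6.32 and 6.22 units on its fellow control arrays. Col13a1, a transmembrane collagen, lay lower at 5 days in both strains, by -0.28 units in the mean (adjusted p = 0.0798).

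Of the laminin genes, only the Lama2 probe above was called in any comparison. Lamc1 read 8.60, 8.99 and 8.14 units in DBA/2J controls, against 9.06, 9.06 and 9.54 units in C57BL/6J controls, and these groups lay apart by -0.64 units (adjusted p = 0.605). Lama1, the alpha chain of the inner limiting membrane, read 5.99 to 6.79 units on all arrays. Lama4 of vessels read 7.05 to 7.63 units, Lama5 6.98 to 8.05 units, Lamb1 6.69 to 7.67 units and Lamc3 7.01 to 7.70 units. None of these 5 genes was called in any of the 10 comparisons.

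Between the strains before injury, 0 of 100 probes were called by limma, against 0.00434% of all probes. 11 had an unadjusted p under 0.05, beside 6.93% of all probes. SAM called 2, Col4a3 and Col26a1, beside 1.37% of all probes. With the 2 arrays near the other strain left out, limma called 1, Col26a1, beside 0.989% of all probes. Those arrays stood apart at strain-dependent genes, Col26a1 among them, so strain calls made without them are a description and no evidence of a strain difference.

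By its brightest probe Col26a1, the chain of type XXVI collagen, lay lower on nearly all DBA/2J arrays. Its level in DBA/2J was 6.85, 6.73 and 6.86 units in controls, 8.22, 6.61 and 6.71 units at 2 days and 6.64, 6.54 and 7.02 units at 5 days. In C57BL/6J it was 7.39, 7.74 and 8.12 units in controls, 8.34, 8.08 and 7.16 units at 2 days and 7.73, 7.84 and 7.66 units at 5 days. Apart from DBA/2J 2 days replicate 1 and C57BL/6J 2 days replicate 3, named above, every DBA/2J array was below every C57BL/6J array. With all arrays the mean difference over the 3 conditions was -0.87 units (SE 0.21, limma adjusted p = 0.0578). Without those 2 arrays it was -1.16 units, given with no test since the arrays stood apart at this gene too. The other Col26a1 probes, averaging 6.71 and 6.55 units, lay near the floor and overlapped between the strains. The dimmest had a mean of 6.67 units in DBA/2J controls and 6.45 units in C57BL/6J controls, the other direction. The gene was chosen for description after its values were seen.

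In the mean over the 3 conditions 0 of 100 probes were called between the strains by limma, against 0.733% of all probes, and 15 had an unadjusted p under 0.05, beside 9.66% of all probes. SAM was not run on it. Without the 2 arrays 3 were called, beside 2.87% of all probes. They were Col26a1, Col16a1, which lay 0.77 units higher in DBA/2J through its 5-day arrays, and a Col6a1 probe. This Col6a1 probe, with a mean level of 10.75 units, lay 0.68 units higher in DBA/2J. The brightest Col6a1 probe, at 11.12 units, was not called. Col23a1, a transmembrane collagen, read 10.57, 10.47 and 10.72 units in DBA/2J controls, against 9.97, 9.65 and 9.89 units in C57BL/6J controls. For this probe, the brightest of the gene, the control groups were clearly apart, by 0.75 units (SE 0.16, adjusted p = 0.142). The strains overlapped at both times after crush. A dimmer Col23a1 probe read 8.07, 8.90 and 9.18 units in DBA/2J controls, against 8.27, 8.46 and 8.54 units in C57BL/6J controls, which overlapped.

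**Figure D5:**
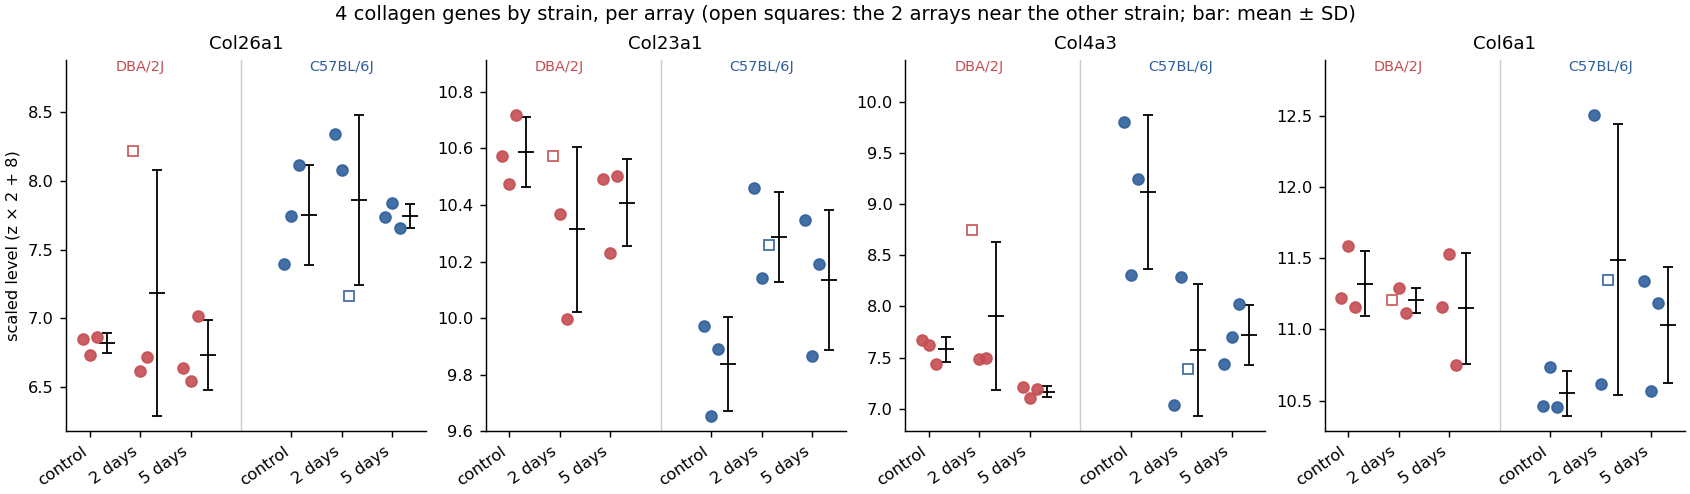
Scaled level (units) of the brightest probe of Col26a1, Col23a1, Col4a3 and Col6a1 on each array, DBA/2J on the left and C57BL/6J on the right, with black bars for the group mean ± SD (n = 3). The Col6a1 probe drawn is not the one called without the 2 marked arrays. Open squares mark DBA/2J 2 days replicate 1 and C57BL/6J 2 days replicate 3, which for Col26a1 read 8.22 and 7.16 units.

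The strains were also compared in their change after crush. For the 2-day change 0 of 100 probes were called by limma, against 0% of all probes, and 3 had an unadjusted p under 0.05, beside 4.14% of all probes. For the 5-day change 0 were called by limma, against 0% of all probes, and 6 had an unadjusted p under 0.05, beside 4.23% of all probes. These 6 were probes of Col16a1, Col4a4, Col8a2, Col28a1, Col11a1 and Col5a2. SAM was not run on these differences.

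Genes that make, modify and bind the chains were read from 4 lists. Of 27 measured genes for collagen synthesis and crosslinking, 1 rose and 1 fell in the mean over both strains at 5 days, with a median of -0.06 units beside -0.06 units over all probes. Over all probes 4.81% were called in that comparison, which stands beside the counts of all 4 lists. P4ha1, a subunit of the prolyl hydroxylase that stabilises the collagen helix, read 10.43, 10.29 and 9.86 units at 5 days in DBA/2J, against 12.07, 11.18 and 11.34 units in DBA/2J controls. In C57BL/6J it read 10.83, 10.43 and 10.14 units at 5 days, against 11.81, 11.92 and 11.91 units in controls. The groups lay apart in both strains and P4ha1 fell by 1.38 units in the mean (SE 0.23, adjusted p = 0.00275). Colgalt1, which adds galactose to collagen, rose by 0.71 units (adjusted p = 0.0264).

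Of 22 basement membrane partners, 1 fell and none rose in that comparison, a share near the 4.81% of all probes, namely Vtn (vitronectin), by 0.79 units (adjusted p = 0.00915). The median over that list was -0.12 units. Of 20 collagen and laminin receptors 1 rose, also near that share, namely Cd44, by 1.05 units (adjusted p = 0.0169), with a median of -0.07 units. Cd44, a hyaluronan and matrix receptor of glia and leukocytes, read 9.67, 10.70 and 9.66 units at 5 days in DBA/2J, against 8.36, 8.80 and 8.72 units in DBA/2J controls. For C57BL/6J the 5-day arrays gave 9.68, 9.43 and 9.04 units, against 8.36, 8.15 and 9.48 units in controls. The Cd44 groups lay apart in DBA/2J and overlapped in C57BL/6J. Of 16 TGF-beta ligands and receptors, the growth factor pathway best known for driving collagen genes, 2 rose and 1 fell, beside 4.81% of all probes called. Tgfbr1 rose by 0.62 units (adjusted p = 0.00698), Tgfbr2 rose by 0.75 units (adjusted p = 0.0143) and Tgfb3 fell by 0.55 units (adjusted p = 0.018). In C57BL/6J alone Tgfbr1 rose by 0.82 units (adjusted p = 0.0207), and no other gene of the 4 lists was called in either strain alone at 5 days.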

How the data were processed

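The authors deposited the signal intensity of 46116 probes per array, with no normalization, and a second table of scores, in which each array's log2 values were standardized so that they centre on 8 with an SD of 2. The same transform was applied here to the intensities, and 99.7% of probes, with all 100 collagen and laminin probes, equalled the deposited scores within 0.02 units. The background correction and detection values were not given in the sources used here.

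limma (3.58.1, R 4.3.3) was fitted to all 18 arrays with 1 mean per group (12 residual and 2.88 prior degrees of freedom), with Benjamini-Hochberg adjustment over all probes in each of 10 comparisons. An adjusted p under 0.03, the study's threshold, was called. SAM used a false discovery rate under 0.03. The fit was tested on simulated data. Gene names came from the platform annotation. Of the probes, 29534 had 1 symbol, 11 several and 16571 none. The labels name pooled retinas but no separate animals per array, so p-values measure the spread between these arrays.

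Named were every called gene, up to 2 genes each way per comparison with the largest differences among groups that did not overlap, the 8 brightest and a fixed set of chains. The members, lists and alternatives were chosen with earlier results of these data known. Same-numbered arrays correlated by 0.27 to 0.48 in their deviations between C57BL/6J controls and 2 days, by 0.19 to 0.45 between the strains at 2 days and by 0.13 to 0.27 between DBA/2J at 2 and 5 days. In no other pair of groups was every such correlation over 0.1. Alternatives were quantile normalization, normexp with an offset of 50, the deposited scores, the probes brighter than the median alone, a threshold of 0.05, an intensity trend, a replicate block, the compared arrays alone, and arrays left out.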

Additional observations from a re-analysis of the deposited data

Results flagged for a closer look

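For genes named above, by their brightest probe, all arrays of the strains moved to opposite sides of their own control mean in 6 cases. How many of all probes met this rule was not counted, so the 6 cannot be set beside a background share. The values below are the DBA/2J change minus the C57BL/6J change, and in none of the 6 was the limma test of the difference called (adjusted p of 0.999 or more). Col23a1 differed by -0.72 units at 2 days (-0.27 in DBA/2J, 0.45 in C57BL/6J, unadjusted p = 0.00644) and by -0.48 units at 5 days (-0.18 in DBA/2J, 0.30 in C57BL/6J, unadjusted p = 0.0546). Both used the same control arrays, which were the groups furthest apart for the brightest Col23a1 probe. A dimmer Col23a1 probe was higher at both times in both strains. Its means in controls, at 2 days and at 5 days were 8.72, 9.07 and 9.37 units in DBA/2J, and 8.43, 8.76 and 8.97 units in C57BL/6J. 3 type IV chains were among the 6 cases, all at 2 days. Col4a4 differed by 0.97 units, from changes of 0.52 in DBA/2J and -0.45 in C57BL/6J. For Col4a5 the difference was 0.72 units, with DBA/2J changing by 0.57 and C57BL/6J by -0.15. Col4a6 gave 0.84 units, the DBA/2J change being 0.26 and the C57BL/6J change -0.57. Each was highest among the C57BL/6J control arrays on replicate 3, the array with the high lens markers. Without that array the C57BL/6J changes of Col4a4, Col4a5 and Col4a6 were 0.04, 0.19 and 0.01 units and the differences 0.48, 0.38 and 0.25 units, so the opposite directions were not kept. Col6a1 differed by -1.06 units at 2 days (-0.12 in DBA/2J, 0.94 in C57BL/6J, unadjusted p = 0.0496), and its highest value, 12.50 units, was on C57BL/6J 2 days replicate 1. Another Col6a1 probe, averaging 10.75 units, was higher at 2 days in both strains, so the opposite directions were particular to the brightest probe. Its means in controls and at 2 days were 10.70 and 11.07 units in DBA/2J, and 9.94 and 10.90 units in C57BL/6J.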

How the results depend on the processing

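Counts below are of the 100 collagen and laminin probes, and the cause of each change was not tested unless named. For 5 days against control in the mean over both strains, with 6 called, quantile normalization and normexp with quantile normalization each called 3, which were Col16a1, Col6a2 and Col7a1. Leaving out 1 array gave 1 to 6, with 1 (Col5a1) without C57BL/6J control replicate 1, 2 without C57BL/6J 5 days replicate 3 or DBA/2J control replicate 1 or 2, 3 without C57BL/6J 5 days replicate 1 or 2 or DBA/2J 5 days replicate 1 or 2, and 4 without C57BL/6J control replicate 3 or DBA/2J 5 days replicate 3. For C57BL/6J at 5 days, with 2 called, quantile normalization called 0, normexp, the intensity trend and the compared arrays alone called 1 each, and leaving out any array gave 0. For DBA/2J at 5 days, with 1 called, the compared arrays alone and SAM called 0, and leaving out 1 array gave 0 to 1. For the strain mean over 3 conditions, with 0 called, a threshold of 0.05, normexp, the probes brighter than the median alone and the replicate block called 1 each, the intensity trend 2, the fit without the 2 arrays near the other strain 3, and leaving out 1 array 0 to 2. Between controls, SAM called 2 and the fit without the 2 arrays 1, and leaving out 1 array gave 0. In the mean at 2 days leaving out 1 array gave 0 to 1, with 1 without C57BL/6J 2 days replicate 1, and in the 2-day comparisons within a strain and in the tests of a strain difference it gave 0. With the replicate block all probes called in C57BL/6J at 2 days were 14 in place of 9, in DBA/2J at 5 days 100 in place of 31, and in the strain mean 501 in place of 338. The correlation of Col1a1 with Col1a2 was 0.031 with quantile normalization and 0.060 with normexp, against -0.08. Col16a1 was called in DBA/2J at 5 days under both normalizations. Levels near 7 units lie close to the dimmest signals, which limits what small differences there can show.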
